A study of Mus musculus with 6 samples.

Results

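The ventral telencephalon is the part of the embryonic forebrain that forms the ganglionic eminences, from which the striatum and most inhibitory neurons of the forebrain arise. Transcription factors set up its territories: Gsx1 and Gsx2 in progenitors of the lateral eminence, Nkx2-1 in the medial eminence, and the Dlx genes in cells that become GABA-producing neurons. Six3, Sp8 and Isl1 act in anterior forebrain patterning, in olfactory bulb interneurons and in striatal neurons, among other places. The 10 genes described here (Six3, Gsx1, Gsx2, Dlx1, Dlx2, Dlx5, Dlx6, Sp8, Nkx2-1 and Isl1) were chosen by symbol from the 24503 gene symbols of the count table, and all 10 had an entry. Earlier results of these data were known when they were chosen. All but Sp8, a zinc finger gene, are homeobox genes.

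RNA-seq was performed on cultured primary neural stem cells isolated from E13.5 mouse cortex, which had been selected through neurosphere formation and then grown on laminin with FGF at 10 ng/mL and EGF at 20 ng/mL. KO cells (n = 3 libraries) carried floxed Phf2 alleles and the Nestin-Cre transgene, Tg(Nes-cre)1Kln, whose recombinase is driven by the promoter of Nestin, a gene of neural progenitors. WT cells (n = 3) carried the same Phf2 flox/flox alleles without Cre, so the groups differ in the transgene as well as in the deletion. Phf2 encodes a histone demethylase of the Jumonji family. The comparison asks how RNA levels differ in neural stem cells after Phf2 deletion.

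Total counts ranged from 33413444 to 46890314 per library. Phf2 itself had 56.3, 48.1 and 48.8 CPM (counts scaled to library size) in KO 1, 2 and 3, against 109, 90.4 and 77.8 CPM in WT 1, 2 and 3, so reads from the gene remained in KO. The exons between the loxP sites are not named in the labels. Libraries numbered 1 stood apart from those numbered 2 and 3 in both groups, and KO 2 and KO 3 formed the most similar pair of all libraries. Results are therefore given without and with the replicate number as a block. The libraries are not stated to come from separate cultures or embryos, so the p-values rest on the spread among these samples alone, and that spread may be technical. In bulk RNA, fewer cells of a type and less RNA per cell cannot be told apart.

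KO neural stem cells had more RNA from Six3, Gsx2 and Dlx1 and less from Sp8 and Gsx1, and these 5 changes passed the test when the replicate number was a block. Mean CPM of Six3, Gsx2 and Dlx1 in KO was 2.07, 1.98 and 1.98 times that in WT, and mean CPM of Sp8 and Gsx1 was 0.251 and 0.494 times that in WT. Dlx2 lay slightly lower in KO and did not pass, and Dlx5, Dlx6, Nkx2-1 and Isl1 had at most 7 counts in any library. Tests used edgeR's quasi-likelihood method, with p-values adjusted by Benjamini-Hochberg over 13683 genes, and 6 of the 10 genes had enough counts to be tested. Without the block 0 of these 6 were called, against 0.0585% of all tested genes, while at an unadjusted p under 0.05 Six3, Dlx1, Sp8 and Gsx1 passed (795 of all genes did). DESeq2 without a block called 3 of them, Six3 and Dlx1 higher and Sp8 lower, against 1.68% of genes. With the block, 3 rose and 2 fell of the 6, against 3.33% of all tested genes higher and 6.46% lower. The 10 genes were chosen with earlier results of these data known, so this contrast is no test of an excess.

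The same 5 genes passed, in the same directions, in numbers 2 and 3 alone without a block (5.40% of genes called) and with KO 2 and KO 3 summed as 1 library and number 1 as the block (4.94%). In 4 of the 6 the groups did not overlap: in each KO library Six3 and Dlx1 lay above, and Sp8 and Dlx2 below, their level in all WT libraries, while Gsx1 and Gsx2 overlapped. Over all tested genes the groups did not overlap in 11.2%. The median log2 fold change of the 6 tested genes was 0.35 in either fit, beside 0.01 over all genes. It is the midpoint between Dlx1 (0.98) and Dlx2 (−0.29 without the block), so it describes no single gene and no shared shift.

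**Figure D1:**
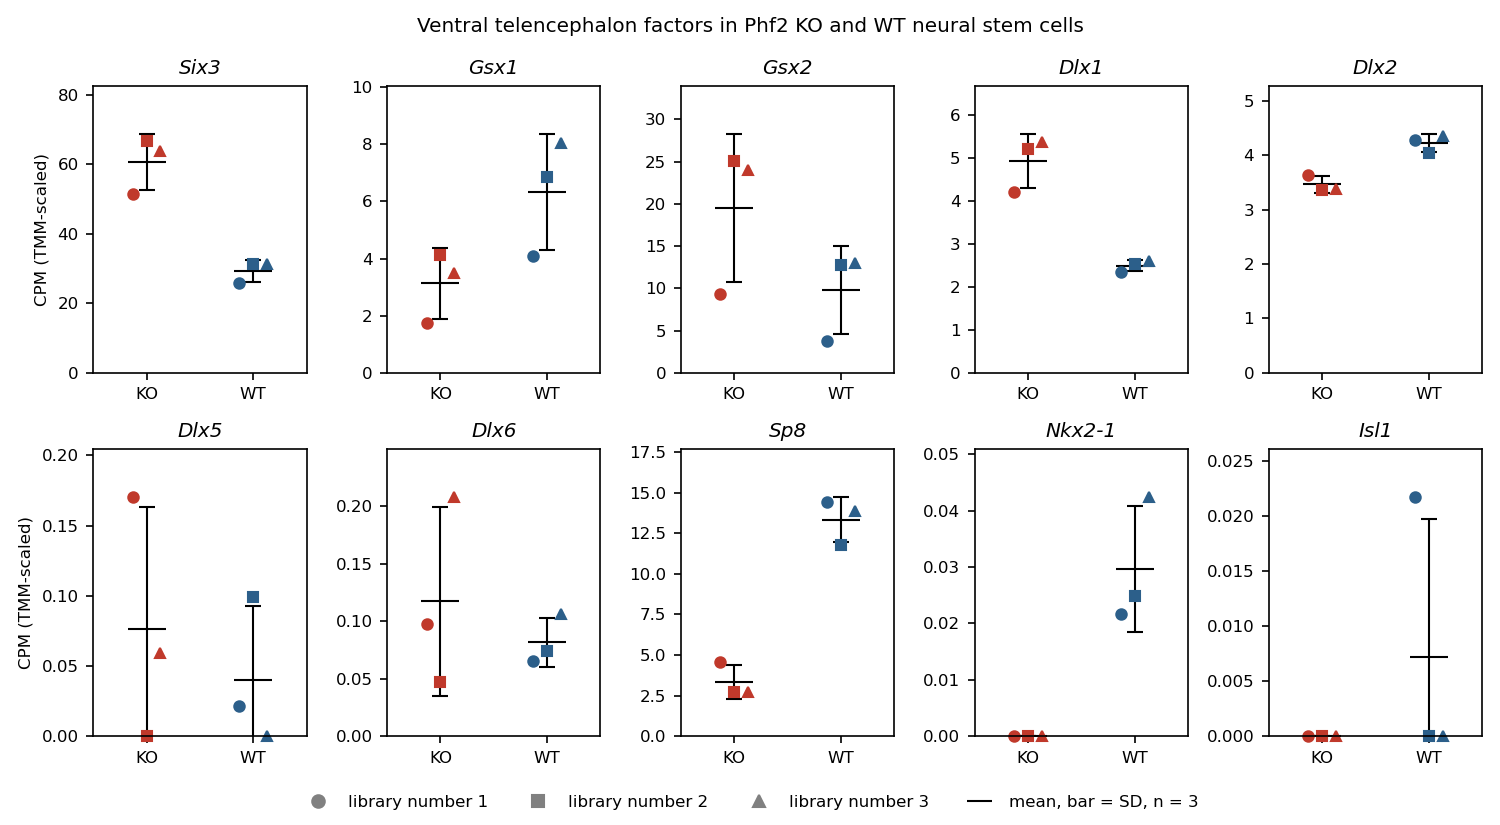
CPM (vertical axes, each starting at 0) of the 10 genes in 3 KO and 3 WT libraries. Each point is a library, marked by its replicate number, and lines show the mean with the SD; bars that would pass below 0 are cut at the axis. Six3, Dlx1, Sp8 and, by a smaller margin, Dlx2 separate the groups. Gsx1 and Gsx2 are low in number 1 of both groups, and Dlx5, Dlx6, Nkx2-1 and Isl1 stay below 0.21 CPM.

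Six3, a homeobox gene required for anterior forebrain and eye formation, had the most counts of the 10 genes in every library. It lies on chromosome 17 (85613608 to 85629302, plus strand, GRCm38). Its level was 51.5, 66.7 and 63.8 CPM in KO 1, 2 and 3, against 25.7, 31.2 and 31.2 CPM in WT 1, 2 and 3. All KO libraries thus lay above all WT libraries, and number 1 was the lowest in both groups. In edgeR's quasi-likelihood test KO exceeded WT by 1.05 ± 0.146 on the log2 scale (SE; adjusted p = 0.114) without the block and by 1.04 ± 0.0698 (adjusted p = 2.27e-05) with it. Within the numbers, KO over WT was 1.00, 1.10 and 1.03 on the log2 CPM scale for numbers 1, 2 and 3, so the difference was nearly the same in each.

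Six3os1, a noncoding transcript on the opposite strand whose annotated exons share 106 bases with those of Six3, was measured at 95.6 ± 23.7 CPM in KO and 72.9 ± 21.1 CPM in WT (SD, n = 3). It had a log2 fold change of 0.40 ± 0.0681 with adjusted p = 0.00483 in edgeR's test with the block and 0.39 ± 0.281 with adjusted p = 0.999 without it. In numbers 2 and 3 alone Six3os1 did not pass (adjusted p = 0.0555 in edgeR's test). Reads from the shared bases cannot be told apart, because the sources used here do not state whether counting used the strand. Of the other Six genes, which encode related homeodomain proteins, Six5 rose in the blocked fit (log2 fold change 0.33 ± 0.0893, adjusted p = 0.0446 in edgeR's test) and Six4 did not pass. The Six5 call was lost in numbers 2 and 3 alone (adjusted p = 0.0793 in edgeR's test) and with KO 2 and KO 3 summed (0.132). Six2 and Six6 were too low to test.

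Gsx1 and Gsx2 encode closely related homeodomain proteins of lateral eminence progenitors, where in mice Gsx2 opposes the dorsal factor Pax6. Both lie on chromosome 5, Gsx2 at 75075601 to 75077893 and Gsx1 at 147188696 to 147190947, plus strand (GRCm38), and they went opposite ways. Gsx2 had 9.37, 25.1 and 24.0 CPM in KO 1, 2 and 3, against 3.80, 12.7 and 12.9 CPM in WT 1, 2 and 3. Gsx1 had 1.75, 4.13 and 3.51 CPM in KO 1, 2 and 3, against 4.09, 6.87 and 8.05 CPM in WT 1, 2 and 3. Number 1 was the lowest library of each group for both genes, and the overlap of the groups involved it: KO 1 lay below WT 2 and WT 3 for Gsx2, and WT 1 lay just below KO 2 for Gsx1.

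For Gsx2 the log2 fold change was 0.99 ± 0.561 (SE) without the block, with adjusted p = 0.999, and 1.04 ± 0.105 with it (edgeR's quasi-likelihood test, adjusted p = 0.000255). For Gsx1 it was −1.02 ± 0.397 without the block, with adjusted p = 0.808, and −1.04 ± 0.148 with it, with adjusted p = 0.00189 in the same test. KO over WT within numbers 1, 2 and 3 was 1.30, 0.98 and 0.89 for Gsx2 and −1.22, −0.74 and −1.20 for Gsx1 (log2 CPM). Without a block, leaving out WT 1 brought the Gsx2 value to 0.61 and leaving out KO 1 brought it to 1.32; both fits hold number 1 in 1 group alone.

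The ratio of Gsx2 to Gsx1 counts within a library does not depend on how libraries are scaled. On the log2 scale it was 2.42, 2.61 and 2.78 in KO 1, 2 and 3, against −0.10, 0.89 and 0.69 in WT 1, 2 and 3, so the groups did not overlap. The means were 2.60 ± 0.179 in KO and 0.49 ± 0.525 in WT (SD, n = 3), which are 6.06 and 1.41 Gsx2 counts per Gsx1 count. The difference was 2.11, with p = 0.1 in a two-sided exact permutation test, the smallest p that 3 libraries against 3 allow.

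The promoters of the pair are shown because the genes encode similar proteins and went opposite ways. They are RefSeq sequences on GRCm38.p6, from 250 bases before to 50 bases after the annotated start, written 5′ to 3′ on the plus strand: Gsx2 at chr5:75075351-75075650 and Gsx1 at chr5:147188446-147188745. Capitals mark matches on either strand to the E-box CACGTG, to TATAAA, to CCAAT and to the GC box GGGCGG.
Gsx2: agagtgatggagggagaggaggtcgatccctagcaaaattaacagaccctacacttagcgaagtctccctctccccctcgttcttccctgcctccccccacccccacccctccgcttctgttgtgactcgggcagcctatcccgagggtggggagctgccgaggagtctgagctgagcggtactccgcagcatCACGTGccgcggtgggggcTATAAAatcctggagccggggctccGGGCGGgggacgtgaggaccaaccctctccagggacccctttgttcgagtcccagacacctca
Gsx1: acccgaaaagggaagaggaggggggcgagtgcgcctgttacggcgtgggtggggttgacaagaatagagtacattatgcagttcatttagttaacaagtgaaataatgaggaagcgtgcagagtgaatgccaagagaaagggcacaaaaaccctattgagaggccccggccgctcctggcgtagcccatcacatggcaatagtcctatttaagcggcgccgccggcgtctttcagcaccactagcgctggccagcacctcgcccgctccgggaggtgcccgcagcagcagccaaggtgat
The Gsx2 window held 1 CACGTG, 1 TATAAA and 1 GGGCGG, none of them overlapping, and the Gsx1 window held none of the 4 motifs. Among 32841 promoters of this length, 7.2% held CACGTG, 13.6% TATAAA, 35.7% GGGCGG and 37.4% CCAAT. Both windows held more CG dinucleotides than the median of 7 over all promoters, with 17 in Gsx2 and 19 in Gsx1. Of all promoters, 31.4% held at least as many as Gsx2 and 28.1% at least as many as Gsx1.

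Dlx1 and Dlx2, homeobox genes that drive differentiation and migration of GABA neurons, are convergent neighbours on chromosome 2 (Dlx1 at 71528113 to 71533981, plus strand; Dlx2 at 71543408 to 71546754, minus strand; GRCm38). In these cells they did not move together. Dlx1 had 4.21, 5.21 and 5.38 CPM in KO 1, 2 and 3, against 2.35, 2.53 and 2.61 CPM in WT 1, 2 and 3. Dlx2 had 3.65, 3.37 and 3.39 CPM in KO 1, 2 and 3, against 4.28, 4.04 and 4.37 CPM in WT 1, 2 and 3. Dlx1 was thus higher in every KO library, and Dlx2 was lower in every KO library by a smaller margin.

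The Dlx1 log2 fold change was 0.98 ± 0.189 (SE) without the block, with adjusted p = 0.194, and 0.98 ± 0.142 with it (edgeR's quasi-likelihood test, adjusted p = 0.0021). That of Dlx2 was −0.29 ± 0.165 without the block, with adjusted p = 0.999, and −0.28 ± 0.136 with it, with adjusted p = 0.241 in the same test. Each of these genes had 102 to 221 counts per library. Within libraries the log2 ratio of Dlx1 to Dlx2 counts was 0.21, 0.63 and 0.67 in KO 1, 2 and 3, against −0.87, −0.68 and −0.74 in WT 1, 2 and 3. Dlx1 counts exceeded Dlx2 counts in all 3 KO libraries and in none of the 3 WT libraries. The difference of the mean ratios was 1.26, with p = 0.1 in the two-sided exact permutation test, the smallest possible.

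**Figure D2:**
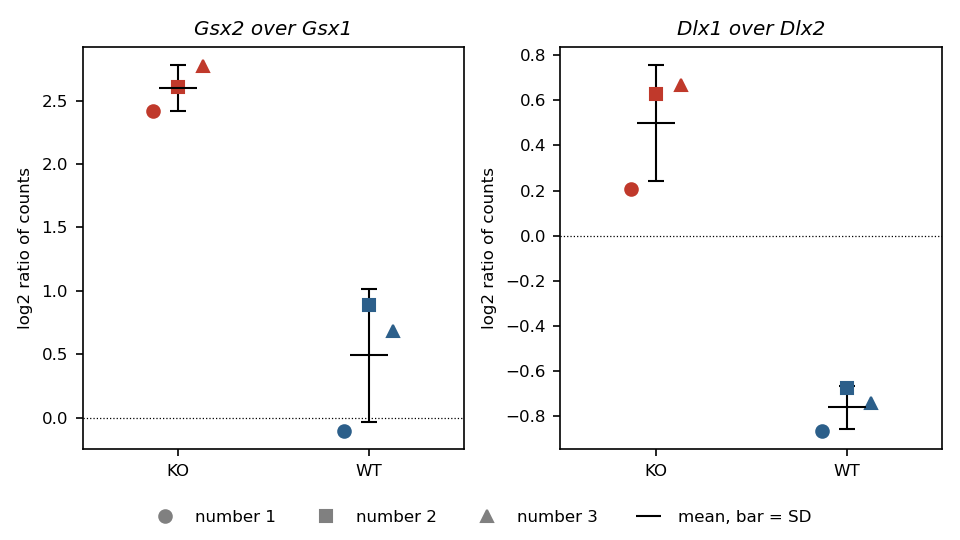
log2 ratio of counts (vertical axes) of Gsx2 over Gsx1 (left) and Dlx1 over Dlx2 (right) in each KO and WT library, with the mean and SD of 3 libraries. The dotted line marks equal counts. All KO ratios lie above all WT ratios in both pairs, and the Dlx ratio is above 0 in KO and below 0 in WT.

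The promoters of Dlx1 and Dlx2 are shown because these neighbours of 1 locus did not move together, although Dlx2 did not pass. They are RefSeq sequences on GRCm38.p6 with the same window and capitals. The windows are Dlx1 at chr2:71529195-71529494, plus strand, and Dlx2 at chr2:71546705-71547004, minus strand. The Dlx1 window is set by the RefSeq start, which lies downstream of the GENCODE start given above, so it falls inside the gene as GENCODE draws it.
Dlx1: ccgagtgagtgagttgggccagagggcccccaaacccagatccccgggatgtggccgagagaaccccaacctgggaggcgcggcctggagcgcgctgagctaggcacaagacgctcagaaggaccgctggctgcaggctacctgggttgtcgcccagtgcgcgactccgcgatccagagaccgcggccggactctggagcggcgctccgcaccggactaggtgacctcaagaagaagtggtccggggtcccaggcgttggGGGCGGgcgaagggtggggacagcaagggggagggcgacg
Dlx2: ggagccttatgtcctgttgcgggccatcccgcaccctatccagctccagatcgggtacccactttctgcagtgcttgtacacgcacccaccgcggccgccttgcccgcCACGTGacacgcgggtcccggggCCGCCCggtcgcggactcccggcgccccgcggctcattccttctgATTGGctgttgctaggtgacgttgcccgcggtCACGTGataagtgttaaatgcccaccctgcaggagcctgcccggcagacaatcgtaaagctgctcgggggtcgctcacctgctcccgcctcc
The Dlx1 window held 1 GGGCGG match and the Dlx2 window 2 CACGTG matches, 1 CCAAT and 1 GGGCGG, and they had 27 and 29 CG dinucleotides. Dlx1as, an antisense transcript whose annotated exons share 335 bases with those of Dlx1, had 6 to 15 counts per library, at 0.329 ± 0.0532 CPM in KO and 0.212 ± 0.0734 CPM in WT (SD, n = 3), and did not pass (adjusted p = 0.441 in edgeR's test with the block). Reads from the shared bases cannot be assigned to a strand.

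Sp8, a zinc finger transcription factor of the anterior neural ridge, the dorsal lateral eminence and olfactory bulb interneurons, had the largest change of the 6 tested genes in either fit. It lies on chromosome 12 (118846329 to 118852576, plus strand, GRCm38). Its level was 4.57, 2.73 and 2.74 CPM in KO 1, 2 and 3, against 14.4, 11.8 and 13.8 CPM in WT 1, 2 and 3, with every KO library below every WT library. The counts behind these values were 188, 116 and 92 in KO and 662, 475 and 653 in WT. For Sp8 the log2 fold change was −1.99 ± 0.253 (SE) without the block, with adjusted p = 0.0959, and −2.01 ± 0.144 with it (edgeR's quasi-likelihood test, adjusted p = 3.24e-05). KO over WT was −1.65, −2.11 and −2.34 within numbers 1, 2 and 3 (log2 CPM).

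Among the related zinc finger genes, Sp5, known as a target of Wnt signalling, went the other way: 1.95, 1.08 and 1.72 CPM in KO 1, 2 and 3, against 1.04, 0.471 and 0.551 CPM in WT 1, 2 and 3. Its log2 fold change was 1.22 ± 0.255 with adjusted p = 0.0145 in edgeR's test with the block, and adjusted p = 0.703 without it. In numbers 2 and 3 alone Sp5 had adjusted p = 0.0686 in the same test. Sp9, which acts beside Sp8 in lateral eminence neurons in mice, was near the limit of testing at 5 to 23 counts per library and did not pass.

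**Figure D3:**
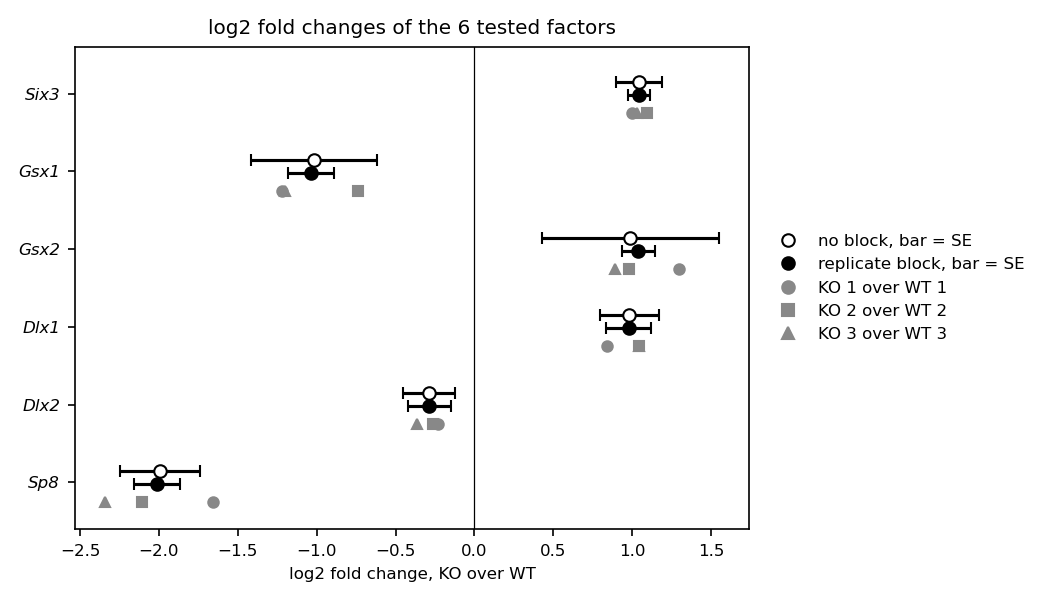
log2 fold change of KO over WT (horizontal axis) for the 6 tested genes. Open circles are from the fit without a block and filled circles from the fit blocked on replicate number, with SE bars; grey symbols are the KO over WT differences within each number. The within-number differences of each gene have 1 sign in all 3 numbers. For Six3, Dlx1, Dlx2 and Sp8 any pairing would give this, because their groups do not overlap. The block shortens the error bars most for Gsx1 and Gsx2.

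The remaining factors mark maturing GABA neurons and other territories, and were at or near 0. Dlx5 and Dlx6, homeobox genes downstream of Dlx1 and Dlx2, lie on chromosome 6 (6877805 to 6882085 and 6863334 to 6868568, GRCm38). Dlx5 had 7, 0 and 2 counts in KO 1, 2 and 3, against 1, 4 and 0 in WT 1, 2 and 3. Dlx6 had 4, 2 and 7 counts in KO 1, 2 and 3, against 3, 3 and 5 in WT 1, 2 and 3. Neither gene showed a separation of groups, and neither was tested.

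Nkx2-1, the homeobox gene that defines the medial eminence, lies on chromosome 12 (56531958 to 56536908, GRCm38) and had 0 counts in each KO library, against 1, 1 and 2 counts in WT 1, 2 and 3. Isl1, a LIM homeobox gene of striatal projection and cholinergic neurons, lies on chromosome 13 (116298281 to 116309689, GRCm38) and had 0 counts in each KO library, against 1, 0 and 0 in WT 1, 2 and 3. A count of 0 allows up to 3 counts, or 0.0636 to 0.0892 CPM in these libraries, so no difference between groups can be read for either gene. This limit covers counting error only.

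Per kilobase of annotated exon, which allows genes to be compared, Gsx2 and Six3 had the highest means in both groups. In KO, Gsx2 was at 11.7 ± 5.28 and Six3 at 11.1 ± 1.48 CPM per kb, followed by Gsx1 at 1.76 ± 0.695, Dlx2 at 1.22 ± 0.0545, Dlx1 at 0.914 ± 0.117 and Sp8 at 0.735 ± 0.233 CPM per kb (SD, n = 3). In WT, Gsx2 was at 5.91 ± 3.14 and Six3 at 5.40 ± 0.582 CPM per kb, followed by Gsx1 at 3.57 ± 1.15, Sp8 at 2.93 ± 0.303, Dlx2 at 1.48 ± 0.059 and Dlx1 at 0.462 ± 0.0245 CPM per kb (SD, n = 3). The order of the means did not hold in every library. In KO, Gsx2 overlapped with Six3, Gsx1 with Dlx2, Dlx1 and Sp8, and Dlx1 with Sp8. In WT, Gsx2 overlapped with Six3, Gsx1 and Sp8, and Gsx1 with Sp8; Gsx2 was at 2.29 CPM per kb in WT 1, below Gsx1 at 2.31 and Sp8 at 3.16 CPM per kb there. Sp8 stood above Dlx2 and Dlx1 in every WT library, whereas in KO it lay below Dlx2 in every library. Dlx5, Dlx6, Nkx2-1 and Isl1 were at or below 0.0876 CPM per kb in every library.

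The replicate number itself moved with several of the 10 genes. A further model, chosen after the split was seen, set number 1 against numbers 2 and 3 while holding genotype fixed. In it, Gsx2 was lower in number 1 (log2 −1.55 ± 0.109, SE, adjusted p = 9.07e-06 in edgeR's test). Gsx1 (−0.98 ± 0.149) and Six3 (−0.31 ± 0.0634) were lower too and Sp8 was higher (0.41 ± 0.146), with adjusted p from 0.000572 to 0.0396 in the same test. Dlx1 and Dlx2 did not pass. Over all genes 57.6% passed in this comparison, so a call here is common. Each number held 1 KO and 1 WT library, and the block changed the SE more than the KO differences. For Gsx2 the SE went from 0.561 to 0.105, and the log2 fold change from 0.99 to 1.04. The source of the split between numbers was not tested.

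Other genes of the ventral telencephalon were read from lists that cover its territories, in the blocked edgeR fit, beside the background of 3.33% higher and 6.46% lower. Without a block, the calls in all of these lists together were Nkx2-2, Bcas1 and En2. Of 22 ganglionic eminence and striatal transcription factors in the table, 18 were tested, 3 rose and 1 fell. Otx2, which patterns the anterior brain, had 23.6 ± 10.8 CPM in KO and 6.28 ± 2.75 CPM in WT, and Zfp503, a zinc finger gene of striatal precursors, 9.73 ± 0.722 CPM in KO and 3.86 ± 0.782 CPM in WT (SD, n = 3). Pbx3, named after its values were seen, rose by 0.45 ± 0.0684, and Nkx6-2, a homeobox gene of the eminences, changed by −2.31 ± 0.231 (log2, SE). Without a block 0 of the 18 were called, and the list had a median of 0.05 (log2) with the block. Meis2 and Ebf1 did not pass.

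Of 13 factors of the medial eminence and of interneurons, 11 were tested, and Maf (0.30 ± 0.0751) and Prox1 (0.57 ± 0.146) rose with the block (log2, SE), 0 fell, and the median was 0.05. Called members numbered 0 in numbers 2 and 3 alone and 0 after summing KO 2 with KO 3. Lhx6 and Lhx8, which act under Nkx2-1, had 0 counts in all 6 libraries. Of 18 genes of GABA production and striatal neurons, 12 were too low to test, including the vesicular transporter gene Slc32a1 with at most 1 count. Gad1, a GABA synthesis enzyme gene, was the call among the 6 tested, with 8.64, 2.19 and 2.11 CPM in KO 1, 2 and 3, against 4.65, 1.14 and 1.06 CPM in WT 1, 2 and 3. It was higher in number 1 of both groups, unlike Gsx2, and its log2 fold change was 0.93 ± 0.153 (SE) with the block. It was not called in numbers 2 and 3 alone (adjusted p = 0.0522 in edgeR's test). Gad2, the partner enzyme gene, had 0, 1 and 1 counts in KO 1, 2 and 3, against 4, 10 and 12 in WT 1, 2 and 3. It was not tested in the blocked fit. In edgeR's test it did not pass in numbers 2 and 3 alone (log2 −3.11 ± 0.785, SE, adjusted p = 0.0805). Nor did it with KO 2 and KO 3 summed (−3.34 ± 0.866, adjusted p = 0.0727 in edgeR's test).

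**Figure D4:**
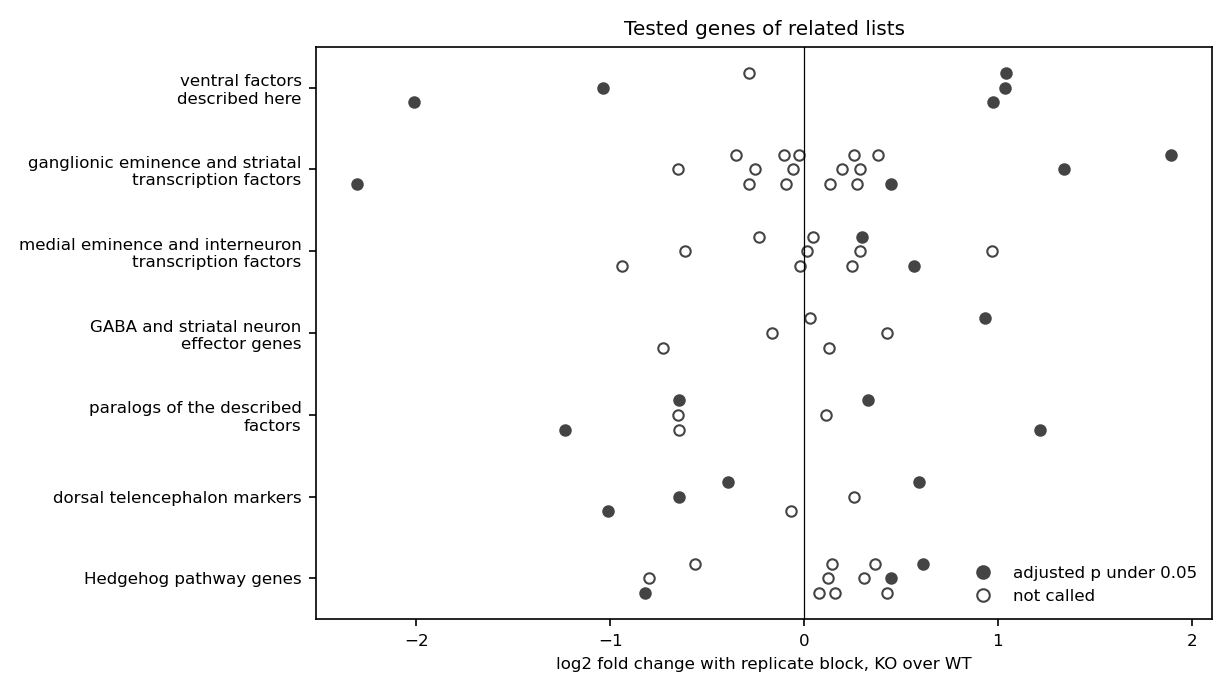
log2 fold change of KO over WT in the fit with the replicate block (horizontal axis) for the tested genes of each list. Filled points passed adjusted p under 0.05 in edgeR's test and open points did not; points are offset vertically for legibility. Calls on both sides of 0 stand in every list shown except the medial eminence and GABA lists, where they are higher.

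Dorsal and signalling genes that oppose or induce these factors were mixed. Of 14 dorsal telencephalon genes, 6 were tested. With the block Nr2f1 rose, and Dmrta2, Emx2 and Lhx2 fell; Emx2 was not called in numbers 2 and 3 alone or with KO 2 and KO 3 summed (adjusted p = 0.0651 and 0.0527 in edgeR's test). Pax6, which Gsx2 opposes, was at 42.4 ± 3.90 CPM in KO and 35.4 ± 1.12 CPM in WT (SD, n = 3) with adjusted p = 0.0553 in edgeR's test with the block. Of 14 Hedgehog pathway genes, 12 were tested. With the block, RNA of the surface protein genes Gas1 (0.62 ± 0.0683) and Cdon (0.45 ± 0.0806) rose (log2, SE). That of Hhip, a pathway target and inhibitor gene, fell (−0.82 ± 0.168). In numbers 2 and 3 alone Cdon and Hhip were not called (adjusted p = 0.129 and 0.0649 in edgeR's test), nor was Cdon with KO 2 and KO 3 summed (0.0582). Gli1, another target, had 3, 9 and 13 counts in KO 1, 2 and 3, against 13, 20 and 16 in WT 1, 2 and 3, and did not pass. Of 12 genes of Fgf8 signalling, which patterns the anterior telencephalon together with Sp8, 8 were tested: Spry4 rose and Fgfr3 fell with the block, and 0 of the 8 were called with KO 2 and KO 3 summed. Fgf8 itself had at most 3 counts. The medians of the 3 lists were −0.23, 0.15 and −0.04 with the block.

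The related families had a call without the block as well. Nkx2-2, a relative of Nkx2-1 that acts in the ventral spinal cord and in oligodendrocyte precursors, had 29.5 ± 1.73 CPM in KO and 69.2 ± 2.23 CPM in WT (SD, n = 3), with adjusted p = 0.0316 in edgeR's test. It was the call among 7 tested of 26 paralogs; 4 passed with the block, Sp5 and Six5 higher and Nkx2-2 and Lhx2 lower (summing KO 2 with KO 3 left 1 higher and 2 lower, and numbers 2 and 3 alone gave 0 higher and 2 lower), and 11 of the 26 had 0 counts in every library. Next to Gsx2 on chromosome 5, Chic2 was slightly higher (0.25 ± 0.0686, log2, SE, adjusted p = 0.0454 in edgeR's test with the block); it was not called in numbers 2 and 3 alone or with KO 2 and KO 3 summed.

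The labelled cell type and tissue were checked against markers. All 12 telencephalon and stem cell markers were tested, with Hes5 higher and Prom1 lower with the block. Hes5 was not called in numbers 2 and 3 alone or with KO 2 and KO 3 summed (adjusted p = 0.0692 and 0.0583 in edgeR's test). Emx1, which marks the developing cortex, had at most 1 count, and the cortical genes Neurog1 and Dmrt3 at most 1, while Emx2, Lhx2 and Pax6 were present. Olig2, a gene of eminence progenitors and of oligodendrocyte precursors, was at 1118 ± 96.5 CPM in KO and 1198 ± 54.7 CPM in WT (SD, n = 3).

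Markers of other cells moved with the groups in places. The 10 neuron markers summed to 672 to 805 CPM in KO and 591 to 824 CPM in WT, and 5 of 9 tested fell and 0 rose with the block (2 fell after summing KO 2 with KO 3, and 2 in numbers 2 and 3 alone). The 10 oligodendrocyte markers summed to 3550 to 3787 CPM in KO and 3568 to 4322 CPM in WT, with 2 of 9 tested higher and 2 lower, and the 8 astrocyte markers to 951 to 2336 CPM in KO and 745 to 1835 CPM in WT, with 2 higher and 4 lower (1 and 3 after summing KO 2 with KO 3, 1 and 2 in numbers 2 and 3 alone). The 9 meningeal and fibroblast markers summed to 217 to 272 CPM in KO and 143 to 203 CPM in WT, mostly Pdgfra and Foxc1. Pdgfra is also among the oligodendrocyte markers, so it enters both sums. Its rise after summing KO 2 with KO 3 (log2 0.57 ± 0.0854, SE) is counted in both lists. Dcn and Foxd1 were at 0 in all libraries. Of 5 tested, 3 were higher and 1 lower with the block (3 and 1 after summing KO 2 with KO 3, 2 and 1 in numbers 2 and 3 alone). After summing, Twist1 was higher (log2 4.70 ± 0.730, SE) and Col1a2 lower (−1.92 ± 0.394). In numbers 2 and 3 alone the Twist1 value was 7.68 ± 1.10 and that of Col1a2 −2.01 ± 0.362. The size of the Twist1 difference thus depended on the fit. The 9 microglia markers summed to 0.731 to 1.22 CPM in KO and 0.422 to 0.804 CPM in WT, with Aif1, C1qa, C1qb and Ptprc at 0 in all libraries, and the 8 endothelial and mural markers to 2.03 to 2.29 CPM in KO and 2.60 to 2.61 CPM in WT, with Cdh5 at 0. Of 14 midbrain and hindbrain markers 3 were tested; En2 and Otx2 rose with the block and the list summed to 93.6 to 117 CPM in KO and 47.7 to 52.5 CPM in WT. Of 10 olfactory bulb markers in the table, which hold Sp8, 7 were tested, with Robo2 higher and Nrp2 and Sp8 lower, and Th was at 0 in all libraries. The part of these cells in the differences of the 10 genes was not tested.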

How the data were processed

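The authors deposited 1 table of raw whole-number counts by gene symbol. Per the submitters' processing notes, FastQC, cutadapt, Trim Galore, Bowtie2 and RSEM were used with mouse build mm10; versions, annotation, strand setting and how RSEM estimates were made whole are not stated there. Each column matched 1 sample title, which gave group and replicate number. The members and lists were chosen with earlier results of these data known.

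Counts were tested in R 4.3.3 with edgeR 4.0.16 (filterByExpr by group, TMM scaling, robust quasi-likelihood fit to 6 libraries, two-sided glmQLFTest, Benjamini-Hochberg over 13683 genes, adjusted p under 0.05 called). SE is the log2 fold change over the root of F. The fit without a block was run on simulated counts that held no effect of the replicate number and the same dispersion for every gene. It recovered 94.9% of genes changed by 1 and 100% of those changed by 2 (log2), with 10 false calls. These rates do not give the power of the fit on the real counts, where the replicate number had a large effect. The blocked fit was not simulated. The replicate number entered as a block in a second fit, since deviations from group means correlated at 0.854, 0.604 and 0.580 within numbers 1, 2 and 3, over the limit of 0.1; the labels do not state a pairing. KO 2 against WT 3 and KO 3 against WT 2 correlated at 0.578 and 0.633, so numbers 2 and 3 are not told apart. KO 2 and KO 3 had a median chi-square per gene of 1.02 over genes with at least 40 counts, against 0.455 from counting alone, and were entered as 2 samples.

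Positions and exon lengths came from GENCODE vM21 on GRCm38, which mm10 names; 95.2% of symbols matched 1 gene. RefSeq promoters matched 8 of the 10 genes; Dlx5 and Dlx6 had none. Named genes were all 10, and up to 3 called members of each other list by lowest p; some list members are not reported here. Ratios of counts used no pseudocount. DESeq2 1.42.0, other scalings, no filter and left-out libraries were the alternatives.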

Additional observations from a re-analysis of the deposited data

How the results depend on the processing

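Of all tested genes, 4 were called higher and 4 lower without a block. The counts were 456 higher and 884 lower with the replicate block, 510 and 935 with number 1 as the block, 251 and 492 in numbers 2 and 3 alone, and 158 and 530 with KO 2 and KO 3 summed. They were 2 and 4 with upper-quartile scaling, 327 and 983 with that scaling and the block, 456 and 795 with RLE scaling and the block (both chosen after seeing the data), 56 and 187 with DESeq2, and 501 and 685 with DESeq2 and the block. Leaving out 1 library gave 0 to 7 higher and 0 to 14 lower, and leaving out 1 number with the block kept gave 359 to 569 higher and 678 to 887 lower (738 without number 2).

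Of the 6 tested genes described here, 0 were called without a block, also with RLE or upper-quartile scaling, without the filter and without any 1 library. DESeq2 called 2 higher and 1 lower. With the replicate block 3 were higher and 2 lower, and so they were in each fit with a block named above, in numbers 2 and 3 alone and without any 1 number (0 to 3 higher and 0 to 2 lower over all fits that leave something out). Over these alternatives each of the 6 kept its direction. Both count ratios kept theirs, 2.11 and 1.26 with pairs as the replicate block (exact sign-flip p = 0.25, the smallest that 3 pairs allow) and 1.81 to 2.31 and 1.18 to 1.41 without 1 library. The ratio of Dlx5 to Dlx6 was not run because Dlx5 had libraries with 0 counts. Counts under 10 per library limit Dlx5, Dlx6, Nkx2-1 and Isl1. Between the main fit and the fit with the replicate block, the SE fell for each of the 6 tested genes, while their log2 fold changes differed little. Why number 1 stood apart was not tested.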
